A study of Homo sapiens with 6 samples.

Results

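The genes described here serve endoplasmic reticulum (ER) stress signalling, protein folding in the ER lumen and ER-associated degradation. They were chosen by name, with earlier results of these data known. The list held 44 gene symbols, of which 43 were found among the 17202 genes of the deposited table. The 42 with a mean of at least 10 normalized counts over the 6 libraries were tested among 13465 genes in all. SELENOK was in the table but below that mean, and WFS1 was not analysed here. By role the 42 comprised 4 sensors and transcription factors, 13 lumenal chaperones and their cofactors, 9 disulfide enzymes, 14 degradation genes, and UFM1 with its ligase UFL1.

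The cells were DND41, a human T-cell acute lymphoblastic leukemia (T-ALL) line. Both groups were grown for 24 h in RPMI medium with 10% FBS. One group of 3 libraries came from cells given MB1-47, which the series title calls a mitochondrial uncoupling drug, at 4 mM as the label writes the dose, and the other group of 3 libraries came from cells given the solvent DMSO. The labels describe the cells as plated in triplicate. Each p-value thus sets the difference between groups against the spread of libraries within groups, which may be only technical. The series covers 1 cell line, 1 dose and 1 time.

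The ER folds secreted and membrane proteins with the help of chaperones, lectins and enzymes that form disulfide bonds. When unfolded proteins build up, the sensors IRE1 (encoded by ERN1), ATF6 and PERK (encoded by EIF2AK3) start the unfolded protein response: IRE1 splices XBP1 mRNA, ATF6 is cut to release a transcription factor, and PERK slows translation. Proteins that cannot be folded are trimmed by mannosidases, read by lectins, moved out of the ER and ubiquitinated, chiefly by the SEL1L-SYVN1 ligase, and degraded by the proteasome.

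Promoter elements to which ATF6 and XBP1 are known to bind were searched in the RefSeq sequences (GRCh38.p14) that run from 250 bases before to 50 bases after a gene's start. Of the 44 listed genes 41 had such a sequence. Only the first entry of each gene was searched, so any other starts of a gene were not covered. The ER stress response element (ERSE) was searched as CCAAT, then 9 bases of any kind, then CCACG, on both strands. It occurred in 22 of 27305 promoters (0.0806%), and 7 of those belonged to XBP1, HSPA5, HSP90B1, CALR, CANX, CRELD2 and ERO1B. The stretches below show the element in genes that differ in their values: HSPA5 at chr9:125241379-125241421 (minus strand), XBP1 at chr22:28800591-28800633 (minus strand), ERO1B at chr1:236282171-236282208 (minus strand), CALR at chr19:12938372-12938414 (plus strand) and CANX at chr5:179698766-179698808 (plus strand). Capitals mark the element, which in ERO1B and CALR lies on the opposite strand and so reads CGTGG, 9 bases, ATTGG.
HSPA5: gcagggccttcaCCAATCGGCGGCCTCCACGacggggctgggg
XBP1: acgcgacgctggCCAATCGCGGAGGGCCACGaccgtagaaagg
ERO1B: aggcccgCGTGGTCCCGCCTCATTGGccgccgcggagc
CALR: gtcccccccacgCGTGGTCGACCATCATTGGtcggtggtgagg
CANX: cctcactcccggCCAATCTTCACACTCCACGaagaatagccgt

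The related ERSE-II was searched as ATTGG, 1 base of any kind, CCACG, on both strands, and was present in 15 promoters (0.0549%), among them those of HYOU1, SDF2L1 and HERPUD1. HERPUD1 at chr16:56932013-56932047 (plus strand) and HYOU1 at chr11:119057262-119057405 (minus strand) are shown because both rose more than 2-fold. Capitals mark the element, which HYOU1 holds in 2 copies on the opposite strand, the first of them overlapped by the UPRE core TGACGTGG.
HERPUD1: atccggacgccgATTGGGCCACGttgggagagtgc
HYOU1: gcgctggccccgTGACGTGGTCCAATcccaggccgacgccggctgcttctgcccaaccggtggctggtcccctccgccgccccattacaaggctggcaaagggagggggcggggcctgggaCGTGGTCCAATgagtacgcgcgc

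The UPRE core was found in 217 promoters (0.795%), those of HYOU1, TXNDC11 and DNAJC10 among them. TTGCATCA, the CARE sequence to which ATF4 and CHOP dimers are known to bind, was found in 252 (0.923%), HERPUD1 among them. ERN1, DNAJB9, SEL1L and EDEM1, which all rose more than 2-fold, had no match to any of the 4 motifs in these windows. That says only that these letters are not there, at the start that was searched.

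Most of the tested genes of the module rose with MB1-47, led by ERN1, DNAJB9 and ERO1B. Of the 42, 28 rose, 1 fell and 13 did not pass the test (limma on log2(value + 1), Benjamini-Hochberg adjusted p under 0.05 over all 13465 genes), where 18.3% of all genes tested rose and 19.8% fell. The median log2 change of MB1-47 over DMSO was 0.57 over the 42 genes, against 0.02 over all genes tested. At least 2-fold rises were seen for 12 of the 42, against 4.75% of all genes tested, and 28 had every MB1-47 library above every DMSO library, against 24.1%. Because the list was chosen with earlier results of these data known, these shares describe the list and are not independent evidence. Of the 28 that rose, 24 also rose under each of the 15 alternative settings. The summed values of the 42 genes made up 1.32%, 1.28% and 1.31% of the library total with MB1-47, against 0.788%, 0.764% and 0.784% with DMSO. Those totals were lower with MB1-47 (28323700 to 29673900) than with DMSO (30788200 to 32667500), so shares of the total are scaled differently from the tested values. In bulk libraries such as these, fewer cells of a kind and less RNA of a gene per cell cannot be told apart.

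**Figure D1:**
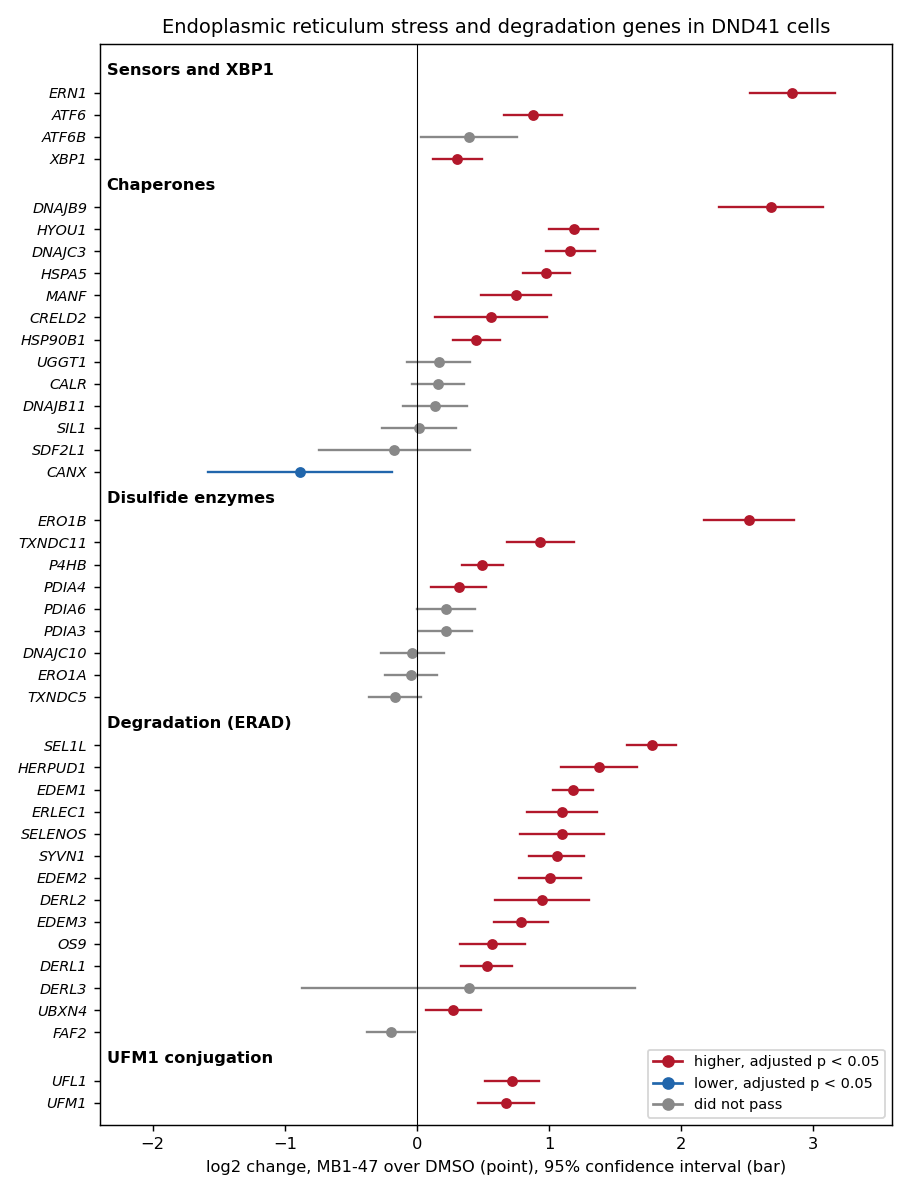
Log2 change of MB1-47 over DMSO (x axis) for the 42 tested genes, grouped by role, with 95% intervals from limma. The changes run from -0.89 for CANX to 2.84 for ERN1, and 28 genes passed the test on the higher side.

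With library totals made equal, the median log2 change over all genes tested was 0.15 in place of 0.02, that of the 42 genes was 0.70 in place of 0.57, and 3335 genes rose and 2063 fell, against 2458 and 2667 in the deposited scaling. In that setting 32 of the 42 genes rose and 0 passed on the lower side by limma; in the deposited scaling 1 passed there and 2 had an unadjusted p under 0.05. On a second principal component (18.5% of the variance) DMSO replicate 1 lay away from DMSO replicates 2 and 3, and 26 of the 42 genes rose when it was left out.

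The labelled cell type was checked against its markers. Of 9 T-cell and T-ALL markers 8 were in the table, with CD3D, CD3E, CD3G, CD7, LCK, NOTCH1 and TLX3 present and CD5 at low values, and their summed normalized counts were 27192 to 31845 with MB1-47, against 50778 to 53531 with DMSO; 5 of the 8 fell. Of 5 B-cell markers 4 were in the table, with sums of 6610 to 7227 with MB1-47 and 16118 to 17280 with DMSO, nearly all CD79A. Plasma cells are rich in the genes described here: 2 of 6 plasma cell markers were in the table, MZB1 and JCHAIN, with sums of 2233 to 3177 with MB1-47, against 1994 to 2237 with DMSO, and neither passed the test. Myeloid markers summed to at most 11.2 with MB1-47 and 22.9 with DMSO, and erythroid markers to at most 36.5 and 26.7 in the same order. Of 5 stromal and epithelial markers 2 were in the table, mostly PDGFRB, with sums of 986 to 1247 with MB1-47 and 1466 to 1836 with DMSO. The part of the falling T-cell and B-cell markers in the results below was not tested.

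Of the 4 sensors and transcription factors 3 rose and none fell by limma, with 0 on the lower side at an unadjusted p under 0.05; their median log2 change was 0.63. ERN1 encodes IRE1, the kinase and RNase that splices XBP1 mRNA, and lies at chr17:64039142-64130819 on the minus strand (GENCODE 29, GRCh38). It had 6053, 5160 and 7207 normalized counts with MB1-47, against 788, 1007 and 766 with DMSO. The lowest MB1-47 library was thus far above the highest DMSO library. The mean was 6140 ± 1026 with MB1-47 and 854 ± 133 with DMSO (SD, n = 3 each), 7.19-fold higher, and the log2 change of 2.84 ± 0.14 (SE; adjusted p = 4.31e-07, limma) was the largest of the 42.

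ATF6, the membrane-bound transcription factor, had 5165, 4465 and 5061 normalized counts with MB1-47, against 2876, 2427 and 2694 with DMSO. The groups did not overlap, and it rose 1.84-fold (log2 change 0.88 ± 0.10, adjusted p = 5.37e-05, limma). Its paralog ATF6B had 854, 1131 and 1113 with MB1-47 and 779, 926 and 660 with DMSO. Those groups overlapped, and the log2 change of 0.39 ± 0.17, with a 95% interval of 0.03 to 0.76, did not pass (adjusted p = 0.0859, limma); it passed without MB1-47 replicate 1 (adjusted p = 0.0404), without DMSO replicate 2 (0.0455) and with equal library totals (0.0379). The ratio of ATF6 to ATF6B was 4.85 ± 1.08 with MB1-47, against 3.47 ± 0.758 with DMSO (SD, n = 3 each), and the groups overlapped; the 6 gene pairs given as ratios here and below were picked with their values in view and have no test.

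XBP1, whose spliced mRNA encodes the transcription factor of the IRE1 branch, had a smaller change. It had 36085, 31496 and 36882 normalized counts with MB1-47, against 30013, 26623 and 27811 with DMSO. Every MB1-47 library was above every DMSO library, but by a small margin. The rise was 1.24-fold (log2 change 0.31 ± 0.08, adjusted p = 0.0146, limma) and 0.59 in log2 with quantile normalization. It no longer passed without MB1-47 replicate 1 (adjusted p = 0.0590), without MB1-47 replicate 3 (0.0719), without DMSO replicate 3 (0.0603) or without the intensity trend (0.0825). Values per gene do not separate spliced from unspliced XBP1 mRNA, so splicing was not measured here.

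**Figure D2:**
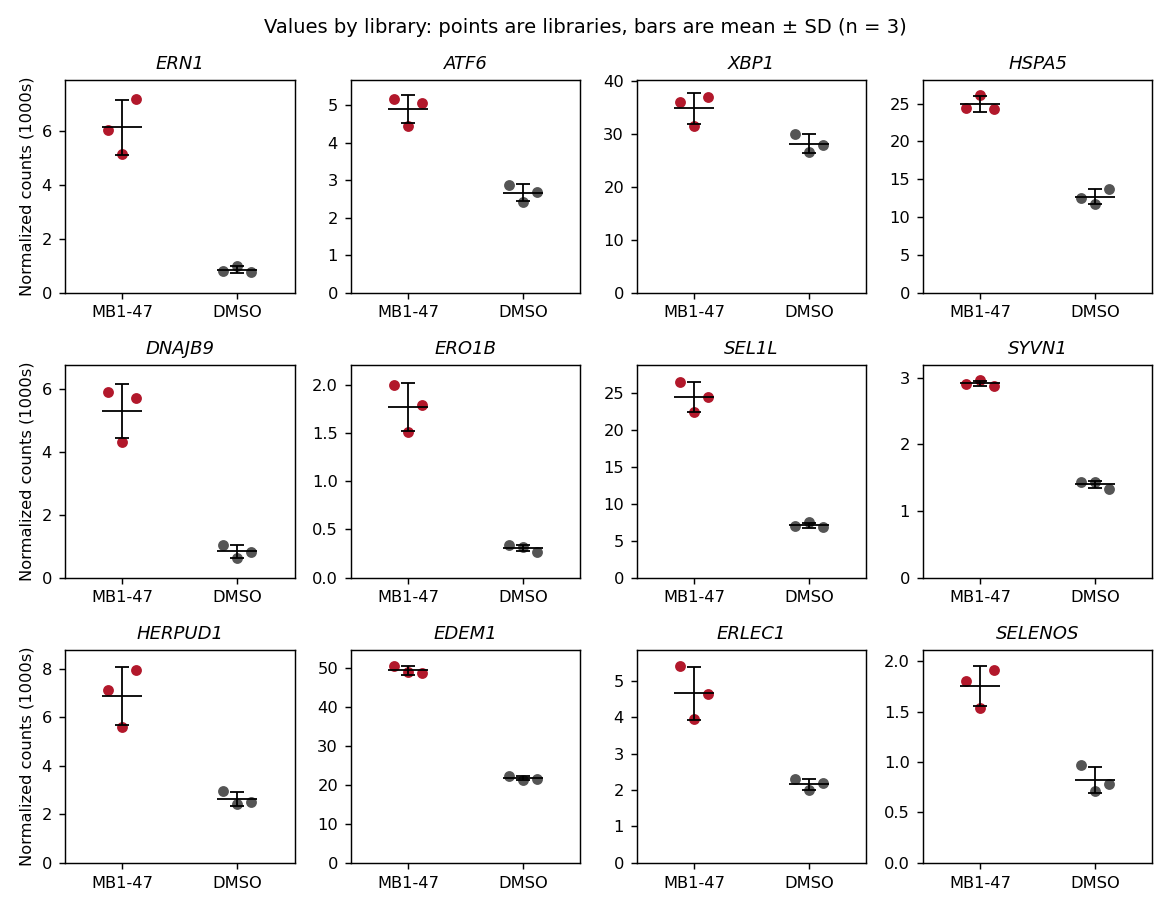
Normalized counts (y axis, scaled as its label says) of 12 genes in each library, MB1-47 left and DMSO right, with bars for the mean ± SD of 3 libraries. The 12 were picked from the 28 genes that rose, all of which had every MB1-47 library above every DMSO library, against 24.1% of all genes tested. The lack of overlap in the 12 panels thus follows from the choice. Genes whose groups overlap, such as ATF6B, CALR and CANX, are not shown. ERN1, DNAJB9 and ERO1B show the widest gaps, at 7.19-fold, 6.35-fold and 5.74-fold.

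Among the 13 lumenal chaperones and cofactors 7 rose, 1 fell and 5 did not pass, with a median log2 change of 0.45. HSPA5 encodes BiP, the ER Hsp70 that also holds the sensors inactive. It had 24435, 26100 and 24247 normalized counts with MB1-47, against 12541, 11728 and 13729 with DMSO. All MB1-47 libraries were close together and well above all DMSO libraries, and the rise was 1.97-fold (log2 change 0.98 ± 0.08, adjusted p = 5.51e-06, limma).

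BiP works with nucleotide exchange factors and J-domain cochaperones, and these split. HYOU1, an Hsp110-type exchange factor, had 11064, 10086 and 10428 normalized counts with MB1-47, against 4986, 4380 and 4515 with DMSO. It rose 2.28-fold without overlap (log2 change 1.19 ± 0.08, adjusted p = 1.99e-06, limma). The other exchange factor, SIL1, averaged 1053 ± 116 with MB1-47 and 1039 ± 63.8 with DMSO, a log2 change of 0.02 (adjusted p = 0.937, limma). DNAJB9, also called ERdj4, directs BiP to misfolded proteins and to IRE1. It had 5882, 4314 and 5707 normalized counts with MB1-47, against 1049, 636 and 819 with DMSO. No library of one group came near the other group, and the rise was 6.35-fold (log2 change 2.68 ± 0.18, adjusted p = 1.39e-06, limma).

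DNAJC3, the cochaperone p58IPK, also known as an inhibitor of PERK, had 6531, 5797 and 6173 normalized counts with MB1-47, against 2764, 2677 and 2818 with DMSO. It rose 2.24-fold without overlap (log2 change 1.16 ± 0.09, adjusted p = 2.60e-06, limma). DNAJB11, the cochaperone ERdj3, averaged 3235 ± 397 with MB1-47 and 2928 ± 191 with DMSO (log2 change 0.14, adjusted p = 0.350, limma). The ratio of DNAJB9 to DNAJB11 was 1.64 ± 0.149 with MB1-47, against 0.283 ± 0.0522 with DMSO (SD, n = 3 each), without overlap.

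The differences were smaller for the ER Hsp90 and for calreticulin. HSP90B1, which encodes GRP94, had 30794, 28270 and 30152 normalized counts with MB1-47, against 23039, 19737 and 22654 with DMSO. It rose 1.36-fold without overlap (log2 change 0.45 ± 0.08, adjusted p = 0.00125, limma), and the log2 change was 0.71 with quantile normalization. CALR, the lumenal lectin calreticulin, had 20468, 21774 and 24236 with MB1-47, against 21082, 17931 and 20489 with DMSO. Those groups overlapped, and the log2 change of 0.16 ± 0.09 did not pass (adjusted p = 0.193, limma), though it did with equal library totals (0.0121) and with quantile normalization (0.00173).

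CANX, the membrane-bound lectin calnexin, was the only one of the 42 to fall. It had 301, 695 and 634 normalized counts with MB1-47, against 1011, 650 and 1281 with DMSO. The groups overlapped, since DMSO replicate 2 lay between the MB1-47 libraries. The log2 change was -0.89 ± 0.32 (adjusted p = 0.0468, limma), and it no longer passed in 7 of the 15 alternatives. These were the runs without MB1-47 replicate 1 (log2 change -0.51, adjusted p = 0.158), without MB1-47 replicate 3 (0.0506), without DMSO replicate 1 (0.0972) and without DMSO replicate 3 (0.187), and those with quantile normalization (0.0529), equal library totals (0.0892) and no intensity trend (0.165). Per kilobase of its longest coding transcript, CANX stood at 128 normalized counts with MB1-47 and 230 with DMSO, against 11644 and 10422 for CALR, so the calnexin value is a low one in this table. How transcripts were summed to genes is unknown. Whether the low value comes from the cells or from the quantification was not tested.

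Of the remaining chaperone genes, MANF, a secreted BiP-binding factor, averaged 2345 ± 36.2 with MB1-47 and 1403 ± 201 with DMSO and rose 1.67-fold (adjusted p = 0.000542, limma). CRELD2, a secreted ER stress protein, averaged 673 ± 93.5 with MB1-47 and 460 ± 105 with DMSO and passed narrowly (log2 change 0.56 ± 0.19, adjusted p = 0.0385, limma). It was lost without MB1-47 replicate 2 (0.129) or 3 (0.0769), without DMSO replicate 1 (0.120) or 2 (0.0937), and without the intensity trend (0.0887). UGGT1, the glucosyltransferase that returns unfolded glycoproteins to the lectins, had a log2 change of 0.16 (adjusted p = 0.268, limma). SDF2L1, a BiP cofactor, averaged 129 ± 21.7 with MB1-47 and 144 ± 1.95 with DMSO (log2 change -0.17, adjusted p = 0.644, limma).

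Among the 9 disulfide enzymes 4 rose and none fell by limma, with 0 on the lower side at an unadjusted p under 0.05, and the median log2 change was 0.22. ERO1B, one of the oxidases that recharge protein disulfide isomerases, accounted for the one rise above 2-fold. It had 2001, 1515 and 1789 normalized counts with MB1-47, against 335, 321 and 268 with DMSO. The groups were far apart, and the rise was 5.74-fold (log2 change 2.52 ± 0.16, adjusted p = 9.62e-07, limma). Its paralog ERO1A averaged 8610 ± 675 with MB1-47 and 8882 ± 697 with DMSO (log2 change -0.04, adjusted p = 0.737, limma). The ratio of ERO1B to ERO1A was 0.205 ± 0.0126 with MB1-47, against 0.0348 ± 0.00516 with DMSO, and the groups did not overlap.

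P4HB encodes the founding protein disulfide isomerase. It had 21064, 22333 and 20432 normalized counts with MB1-47, against 15153, 14670 and 15411 with DMSO. It rose 1.41-fold without overlap (log2 change 0.50 ± 0.07, adjusted p = 0.000277, limma). PDIA6, a family member that acts on the sensors, had 15954, 14436 and 17793 with MB1-47, against 14890, 12267 and 14150 with DMSO. Those groups overlapped, and the log2 change of 0.22 ± 0.10 did not pass (adjusted p = 0.106, limma).

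PDIA3, the isomerase that works with the lectins, averaged 14317 ± 796 with MB1-47 and 12351 ± 1261 with DMSO, a log2 change of 0.22 (adjusted p = 0.0803, limma). Both PDIA3 and PDIA6 passed with quantile normalization (0.00129 and 0.00146), with equal library totals (0.00432 and 0.00625) and with the replicate number as a block (0.0279 and 0.0335); PDIA3 also passed without DMSO replicate 1 (0.0254) and PDIA6 without MB1-47 replicate 2 (0.0418). With any of the first 3 settings, 6 of the 9 enzymes rose. PDIA4 averaged 4148 ± 374 with MB1-47 and 3329 ± 180 with DMSO and passed (log2 change 0.31 ± 0.10, adjusted p = 0.0236, limma). It was lost without MB1-47 replicate 2 (0.0800), without DMSO replicate 1 (0.0512) or 2 (0.0717), and without the intensity trend (0.0747). TXNDC11, a membrane-bound thioredoxin-like protein linked to degradation, rose 1.91-fold, with 1903 ± 167 with MB1-47 and 994 ± 69.8 with DMSO (adjusted p = 9.62e-05, limma). The log2 changes of TXNDC5 and of the reductase DNAJC10 were -0.17 and -0.03 and did not pass (adjusted p = 0.176 and 0.833, limma).

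Of the 14 degradation genes 12 rose and none fell by limma, with 1 on the lower side at an unadjusted p under 0.05 (FAF2), and 7 rose at least 2-fold. Their median log2 change was 0.98, against 0.63 for the sensors, 0.45 for the chaperones, 0.22 for the disulfide enzymes and 0.70 for UFM1 and UFL1; these medians were not tested against each other. As a share of the library total the degradation genes made up 0.444% ± 0.0160 with MB1-47 and 0.208% ± 0.00444 with DMSO (SD, n = 3 each). With MB1-47 the largest parts of that sum were EDEM1, at a mean of 49342 against 21740 with DMSO, and SEL1L, at 24394 against 7104. The chaperones made up 0.398% ± 0.00348 with MB1-47 and 0.243% ± 0.00783 with DMSO, and the disulfide enzymes 0.273% ± 0.00384 with MB1-47 and 0.211% ± 0.00746 with DMSO.

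**Figure D3:**
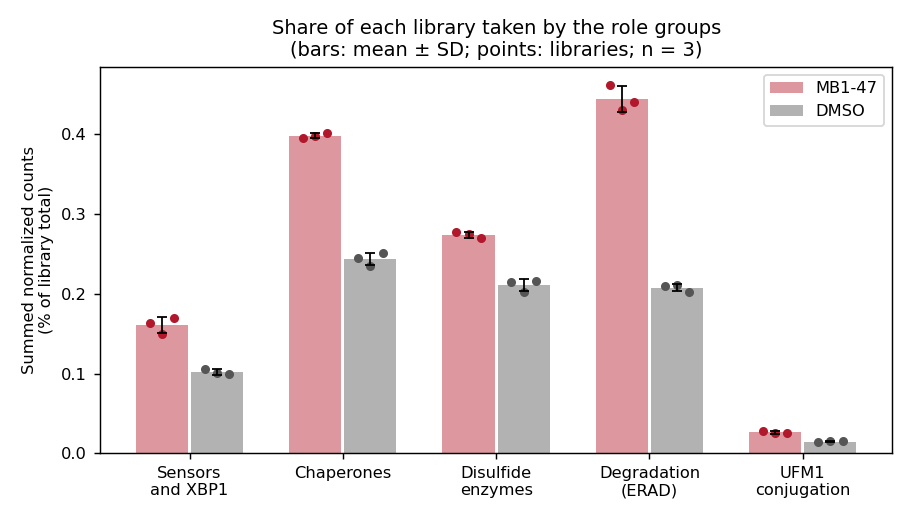
Summed normalized counts of each role group as a percent of the library total (y axis), MB1-47 left and DMSO right, with points for libraries and bars for the mean ± SD of 3. The degradation genes lie at 0.444% with MB1-47 and 0.208% with DMSO, and the groups do not overlap in any role. EDEM1 and SEL1L are the largest parts of the degradation sum with MB1-47.

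SEL1L, the adaptor of the main ubiquitin ligase of the ER membrane, had 26367, 22377 and 24437 normalized counts with MB1-47, against 7035, 7484 and 6794 with DMSO. The groups were far apart, and the rise was 3.43-fold (log2 change 1.78 ± 0.08, adjusted p = 3.25e-07, limma). SYVN1, the ligase itself, also called HRD1, had 2908, 2958 and 2872 with MB1-47, against 1433, 1431 and 1335 with DMSO. Libraries within each group were nearly equal, and the rise was 2.08-fold (log2 change 1.06 ± 0.09, adjusted p = 9.48e-06, limma). The ratio of SEL1L to SYVN1 was 8.38 ± 0.759 with MB1-47, against 5.07 ± 0.160 with DMSO.

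HERPUD1, a short-lived membrane protein that organises the ligase, had 7119, 5585 and 7923 normalized counts with MB1-47, against 2946, 2435 and 2500 with DMSO. It rose 2.62-fold without overlap (log2 change 1.38 ± 0.13, adjusted p = 1.52e-05, limma). SELENOS, a selenoprotein that links the channel to the p97 ATPase, had 1804, 1535 and 1914 with MB1-47, against 967, 717 and 779 with DMSO. It too rose without overlap, 2.13-fold (log2 change 1.10 ± 0.14, adjusted p = 0.000142, limma). SELENOK, a second selenoprotein of this site, was listed at 0 in every MB1-47 library and at 19.2, 0.995 and 0 in the DMSO libraries, and was not tested.

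The EDEM proteins trim mannose from misfolded glycoproteins and mark them for disposal. EDEM1 had 50520, 48942 and 48563 normalized counts with MB1-47, against 22402, 21244 and 21575 with DMSO. The rise was 2.27-fold without overlap (log2 change 1.18 ± 0.07, adjusted p = 6.98e-07, limma). EDEM2 had 2749, 2733 and 2730 with MB1-47, against 1543, 1268 and 1290 with DMSO. Its MB1-47 libraries were almost identical, and it rose (log2 change 1.01 ± 0.11, adjusted p = 3.45e-05, limma). EDEM3 averaged 5788 ± 426 with MB1-47 and 3359 ± 224 with DMSO and rose 1.72-fold (adjusted p = 6.87e-05, limma). The ratio of EDEM1 to EDEM3 was 8.55 ± 0.439 with MB1-47, against 6.49 ± 0.365 with DMSO.

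Both lectins that read the trimmed glycans rose. ERLEC1, also called XTP3-B, had 5399, 3944 and 4629 normalized counts with MB1-47, against 2303, 1994 and 2186 with DMSO. The groups did not overlap, and the rise was 2.15-fold (log2 change 1.10 ± 0.12, adjusted p = 4.18e-05, limma). OS9 averaged 1814 ± 127 with MB1-47 and 1220 ± 83.7 with DMSO and rose 1.49-fold (adjusted p = 0.00192, limma).

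Of the derlins, rhomboid-like proteins of the exit channel, DERL1 rose 1.44-fold, with 5482 ± 153 with MB1-47 and 3810 ± 284 with DMSO (adjusted p = 0.000694, limma). DERL2 rose 1.92-fold, with 2859 ± 434 with MB1-47 and 1491 ± 299 with DMSO (adjusted p = 0.000799, limma). The ratio of DERL2 to DERL1 was 0.523 ± 0.0874 with MB1-47, against 0.396 ± 0.102 with DMSO, and the groups overlapped. DERL3 was near the lower end of the tested range, at 32.2 ± 13.4 with MB1-47 and 22.9 ± 4.38 with DMSO, and did not pass (adjusted p = 0.629, limma). UBXN4 and FAF2 encode membrane proteins that recruit p97. UBXN4 averaged 14348 ± 1750 with MB1-47 and 11791 ± 301 with DMSO and passed narrowly (log2 change 0.28 ± 0.09, adjusted p = 0.0400, limma; 0.46 in log2 with quantile normalization). It was lost in 6 alternatives: without any one of the libraries except MB1-47 replicate 2 (adjusted p 0.0635 to 0.155), and without the intensity trend (0.139). FAF2 averaged 6277 ± 357 with MB1-47 and 7187 ± 390 with DMSO, with a log2 change of -0.20 ± 0.08 (adjusted p = 0.0901, limma). All MB1-47 libraries of FAF2 lay below its DMSO libraries, as did those of TXNDC5, and neither gene passed the test. The share of all genes tested with that separation on the lower side was not computed, so it is not read as a trait of these genes.

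UFM1 is a ubiquitin-like protein that UFL1 attaches to ribosomes at the ER. UFM1 had 3734, 3198 and 3739 normalized counts with MB1-47, against 2241, 2199 and 2240 with DMSO. It rose 1.60-fold without overlap (log2 change 0.67 ± 0.10, adjusted p = 0.000263, limma). UFL1 had 4474, 3883 and 3998 with MB1-47, against 2397, 2525 and 2573 with DMSO, a rise of 1.65-fold (adjusted p = 0.000127, limma).

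Levels can be set against each other only per length. In normalized counts per kilobase of the longest coding transcript in GENCODE 29, XBP1 stood at 18822 with MB1-47 and 15216 with DMSO. On that scale HSP90B1 stood at 10405 with MB1-47 and 7631 with DMSO, EDEM1 at 8028 and 3537 in the same order, and HSPA5 at 6379 and 3241. SEL1L stood at 3078 with MB1-47 and 896 with DMSO. The genes with the largest changes were low to moderate on this scale with DMSO: DNAJB9 stood at 1952 with MB1-47 and 307 with DMSO, ERN1 at 780 and 108, and ERO1B at 387 and 67.4. The coefficient of variation over 3 libraries had a median of 8.69% with MB1-47 and 7.90% with DMSO over these genes.

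Of the 3 genes with the largest changes, ERN1 and DNAJB9 had no ERSE in the window that was searched and ERO1B had one. Of the 7 genes of the module with an ERSE, 5 rose, beside 28 of all 42 tested genes of the module. The median log2 change of the 7 was 0.45, against 0.73 for the tested genes of the module with a promoter entry and no ERSE. Over the 9774 tested genes with a promoter entry, 14 held an ERSE, of which 9 rose and 1, CANX, fell. The 9 include the 5 genes of the module, which was chosen with earlier results known. ERSE-II was held by 10 tested genes, of which 2, HYOU1 and HERPUD1, rose and 1 fell. The UPRE core was held by 93, of which 33 rose and 13 fell, and CARE by 47, of which 11 rose and 8 fell. Of all 13465 genes tested, 18.3% rose and 19.8% fell. These counts describe letters in a window and were not compared by a test. Those for ERSE and ERSE-II are too few for a comparison.

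The pathway has many further genes, given here as lists beside the same background of 18.3% higher and 19.8% lower. Of 19 other genes of unfolded protein response signalling, 9 rose, 3 fell and 7 did not pass, with a median log2 change of 0.16. EIF2AK3, which encodes PERK, had 3074, 2389 and 2962 normalized counts with MB1-47, against 1203, 794 and 1086 with DMSO. It rose 2.73-fold without overlap (log2 change 1.46 ± 0.16, adjusted p = 4.26e-05, limma), so all 3 sensor genes ERN1, ATF6 and EIF2AK3 passed. ATF4, a factor through which PERK can act, had 22674, 23232 and 23999 with MB1-47, against 19444, 18907 and 20704 with DMSO. That rise was 1.18-fold (log2 change 0.24 ± 0.07, adjusted p = 0.0200, limma), with 0.37 in log2 with equal library totals and 0.49 with quantile normalization. It was lost without MB1-47 replicate 3 (0.0829), without DMSO replicate 1 (0.0567) or 2 (0.0538), and without the intensity trend (0.0823). Whether the changes of ATF4, TRIB3, DDIT3 and PPP1R15A came through PERK was not tested.

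TRIB3, a pseudokinase induced by ATF4 and CHOP, had 60393, 59207 and 59618 normalized counts with MB1-47, against 9944, 9014 and 10547 with DMSO (log2 change 2.61 ± 0.08, adjusted p = 3.67e-08, limma). DDIT3, which encodes CHOP, rose 2.96-fold (adjusted p = 1.20e-05, limma), and PPP1R15A, which encodes the phosphatase subunit GADD34, rose 3.24-fold (adjusted p = 8.41e-06, limma). CREB3L2, an ATF6-like membrane-bound factor, rose 3.21-fold, with 5270, 4498 and 5359 with MB1-47 and 1677, 1789 and 1253 with DMSO (adjusted p = 4.97e-06, limma). The proteases that cut ATF6 did not pass: the log2 changes of MBTPS1 and MBTPS2 were 0.09 and 0.17 (adjusted p = 0.485 and 0.275, limma), and MBTPS2 passed with equal library totals (0.0482).

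The 3 genes of this list that fell were named after their values were seen. RTCB, the ligase that joins the XBP1 exons cut by IRE1, had 3000, 3048 and 3245 normalized counts with MB1-47, against 3881, 3823 and 4317 with DMSO (log2 change -0.37 ± 0.09, adjusted p = 0.00756, limma; -0.24 with equal library totals). ZBTB8OS, its archease cofactor, had a log2 change of -0.54 (adjusted p = 0.00577, limma). NFYA, a subunit of the factor that binds the CCAAT part of the ERSE, had a log2 change of -0.49 (adjusted p = 0.00161, limma). All 3 passed in each of the 15 alternatives.

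Of 34 other degradation genes, 16 rose, 4 fell and 14 did not pass, with a median log2 change of 0.37. UBE2J1, the membrane-anchored ubiquitin-conjugating enzyme of the SYVN1 ligase, had 6509, 6395 and 6502 normalized counts with MB1-47, against 2497, 2581 and 2492 with DMSO. It rose 2.56-fold, far outside the spread within groups (log2 change 1.36 ± 0.08, adjusted p = 7.98e-07, limma). FAM8A1, an assembly factor of the same ligase, had 1479, 944 and 1302 with MB1-47, against 459, 437 and 394 with DMSO, a rise of 2.89-fold (adjusted p = 6.32e-05, limma).

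The 4 that fell were VCP, UFD1, NPLOC4 and UBE2G2. VCP, the p97 ATPase that pulls substrates from the membrane, had 5274, 6798 and 7232 normalized counts with MB1-47, against 11070, 10229 and 11753 with DMSO (log2 change -0.79 ± 0.12, adjusted p = 0.000320, limma). UFD1, a p97 cofactor, had 2310, 2407 and 2122 with MB1-47, against 4485, 3706 and 4361 with DMSO (log2 change -0.87 ± 0.10, adjusted p = 7.07e-05, limma). Its partner NPLOC4 had 5128, 4830 and 4116 with MB1-47, against 7196, 6647 and 7301 with DMSO (log2 change -0.59 ± 0.10, adjusted p = 0.000673, limma). UBE2G2, a ubiquitin-conjugating enzyme of the ER ligases, had 3552, 3656 and 3707 with MB1-47, against 6230, 6277 and 6306 with DMSO (log2 change -0.79 ± 0.08, adjusted p = 1.99e-05, limma). The groups did not overlap for any of the 4, and each passed in all 15 alternatives; VCP, NPLOC4 and UBE2G2 were named after their values were seen. Some other genes of the list that are known to act with p97 or on its substrates in the cytosol rose. They were also named with their values in view. VCPIP1, a deubiquitinase that binds p97, averaged 3480 ± 65.0 normalized counts with MB1-47 and 1976 ± 112 with DMSO (log2 change 0.82 ± 0.09, adjusted p = 4.64e-05, limma). The deglycosylase NGLY1 and the deubiquitinase YOD1 had log2 changes of 0.61 and 0.44 (adjusted p = 0.00107 and 0.00527, limma). UBXN1 and ANKZF1 had log2 changes of 0.56 and 0.43 (adjusted p = 0.0215 and 0.0250, limma). UBXN1 was lost without MB1-47 replicate 2 (log2 change 0.36, adjusted p = 0.0569), without DMSO replicate 1 (0.0689) or 2 (0.0635) and without the intensity trend (0.111). ANKZF1 was lost without MB1-47 replicate 2 (0.0883) or 3 (0.0562) and without DMSO replicate 2 (0.0591) or 3 (0.0891). UBXN8, UBXN6 and RHBDD1 of the same list did not pass (log2 changes -0.36, 0.38 and 0.30, adjusted p = 0.0754, 0.0958 and 0.156, limma). They passed in 1, 2 and 2 of the 15 alternatives in the same order. For UBXN8 every MB1-47 library lay below every DMSO library.

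**Figure D4:**
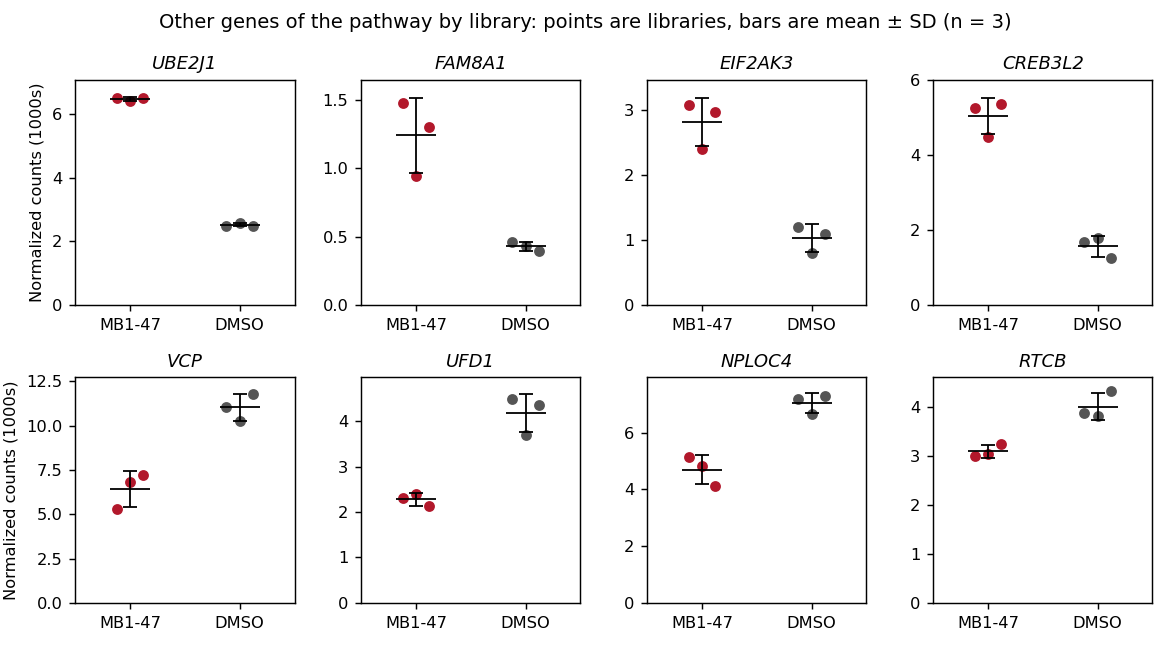
Normalized counts (y axis, scaled as its label says) of 8 pathway genes outside the 42 in each library, MB1-47 left and DMSO right, with bars for the mean ± SD of 3 libraries. The 8 were picked from genes that passed the test. UBE2J1, FAM8A1, EIF2AK3 and CREB3L2 lie higher with MB1-47, and VCP, UFD1, NPLOC4 and RTCB lie lower, with no overlap in any panel.

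Of 25 other folding and retrieval genes tested, 6 rose, 4 fell and 15 did not pass, with a median log2 change of -0.04. TMX4, a membrane-bound thioredoxin-like protein, rose 2.50-fold (adjusted p = 4.58e-05, limma), and FKBP14, a prolyl isomerase, rose 2.24-fold (adjusted p = 0.000336, limma). PRDX4, the ER peroxiredoxin, fell: it had 1010, 1231 and 1193 normalized counts with MB1-47, against 3706, 3412 and 4176 with DMSO (log2 change -1.72 ± 0.12, adjusted p = 1.63e-06, limma). KDELR1, a receptor that returns lumenal proteins to the ER, rose 1.54-fold (adjusted p = 0.000628, limma); it and the next 3 genes were named after their values were seen. TMX2, TXNDC12 and CNPY2 had log2 changes of -0.30, -0.35 and -0.61 (adjusted p = 0.0231, 0.0102 and 0.0242, limma). TMX2 was lost without MB1-47 replicate 1 (0.0745) or 3 (0.0552) or DMSO replicate 3 (0.0950), with equal library totals (0.158) and without the intensity trend (0.0559). CNPY2 was lost without MB1-47 replicate 1 (0.0772) or 3 (0.0792) or DMSO replicate 2 (0.0832) or 3 (0.102), with equal library totals (0.0797) and without the trend (0.0602), and TXNDC12 without the trend (0.0501). With equal library totals the log2 changes were -0.17 for TMX2 and -0.23 for TXNDC12.

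Of 18 translocon and signal peptidase genes 8 rose, 1 fell and 9 did not pass, with a median log2 change of 0.33. TRAM1, SSR3 and SEC11C rose 1.86-fold, 1.75-fold and 1.70-fold (adjusted p = 2.38e-05, 1.88e-05 and 0.000983, limma). SEC61A1, the channel subunit, had 27556, 27202 and 26958 normalized counts with MB1-47, against 17436, 16383 and 17275 with DMSO, and SPCS1, a signal peptidase subunit, was the 1 that fell (log2 change -0.64, adjusted p = 0.00140, limma); both were named after their values were seen.

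Of 8 ER-phagy genes, which serve the autophagy of ER membrane, 6 rose, 1 fell and 1 did not pass, with a median log2 change of 0.69. CALCOCO1 rose 3.36-fold, CCPG1 2.94-fold and the reticulophagy receptor RETREG1 2.55-fold (adjusted p = 3.76e-06, 4.16e-06 and 0.000472, limma). ATL3 was the 1 that fell, with 6919, 6662 and 6829 normalized counts with MB1-47, against 10409, 10133 and 10942 with DMSO (log2 change -0.62 ± 0.07, adjusted p = 7.29e-05, limma), and was named after its values were seen. Of 6 other UFM1 pathway genes tested, 2 rose and none fell by limma, with 0 on the lower side at an unadjusted p under 0.05, and the median log2 change was 0.36. They were UFSP2 (log2 change 0.54, adjusted p = 0.0360, limma) and ODR4 (0.37, adjusted p = 0.0302). UFSP2 was lost without any one library except DMSO replicate 1 (adjusted p up to 0.138), and ODR4 without MB1-47 replicate 1 (0.0654) or 3 (0.106) or DMSO replicate 1 (0.0621) or 2 (0.0948); both were lost without the intensity trend.

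**Figure D5:**
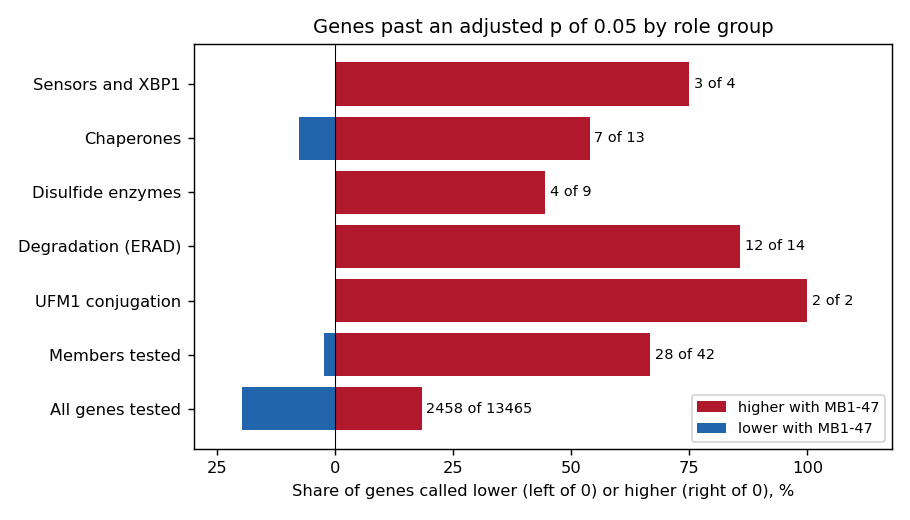
Percent of tested genes that rose (right of 0) and fell (left of 0) with MB1-47 (x axis) in the module, in its role groups and over all 13465 genes tested. Of the 42 tested genes 28 rose, beside 18.3% of all genes tested.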

How the data were processed

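Gene expression was measured by RNA sequencing in 6 libraries, and per the submitters' processing notes the authors used kallisto 0.44.0, GRCh38.p13 and DESeq. The deposited values are a signal: normalized counts per gene scaled by DESeq, per the labels. For the annotation and for how transcripts were summed to genes, the sources used here give nothing. Low values were within 0.1 of whole multiples for 59.4% to 66.6% of genes, so reads were not recovered, the depth is unknown and no count test was used. Library totals were 28323700 to 32667500 normalized counts.

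Genes with a mean of at least 10 were tested with limma 3.58.1 (R 4.3.3; moderated test, intensity trend, 95% intervals, two-sided) on log2(value + 1), which understates changes of low genes, with no covariates. The scripts were tested on simulated data. A first rule for recovery over all genes was not met, and the rule was then narrowed to genes of higher values. The simulation thus gives no assurance for low genes. The alternatives were pseudocounts of 0.5 and 5, no filter, a minimum mean of 50, trimmed-mean (TMM) factors, quantile normalization, equal totals, no trend, a replicate block and leaving out each library. Role groups are described by counts and medians, with no set test.

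The 44 genes and the other lists were chosen with earlier results of these data known. Values in every library were given for genes past the threshold with a log2 change of at least 1 in size, for each sensor and for the 2 highest genes of each role; from each other list, up to 3 genes past the threshold with the largest changes and a mean of at least 50, plus EIF2AK3, ATF4 and DDIT3, were named, with library values for some and folds for the rest. The library values of HSPA5, CANX and SELENOK were added after their values were seen. The longest coding transcript was also chosen then, because the median one gave CALR an implausibly short length. Copies PDIA3P1, HSP90B2P, XBP1P1, ERLEC1P1 and SELENOKP1 were in the table at low values and could share reads with their parent genes. Python 3.11.15 with matplotlib 3.10.9 drew the plots.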

Additional observations from a re-analysis of the deposited data

How the results depend on the processing

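Of 83 genes followed, 62 kept their direction and their side of the threshold in each of the 15 alternatives that tested them, as did 30 of the 42 genes of the module. The genes followed outside the module were mostly picked because they passed, and all but MBTPS1 and MBTPS2 did. The count of 62 is therefore partly set by that choice. Both pseudocounts, the absence of a filter and the TMM factors changed none. The genes of the module that rose numbered 25 to 27 when 1 library was left out, and 24 without the intensity trend. Those that fell, and the chaperones that fell, numbered 0 with quantile normalization, with equal library totals and without the trend, and 0 to 1 without 1 library, since CANX was the only one. Folding and retrieval genes that fell numbered 2 with equal totals and 2 without the trend, and 2 to 4 without 1 library. Of the UFM1 pathway genes 0 rose without the trend, and 0 to 1 without 1 library. Log2 changes near 0 turned sign for 3 genes that did not pass: ERO1A was 0.047 with quantile normalization, 0.084 with equal totals and -0.11 to 0.012 without 1 library; DNAJC10 was 0.0030 with quantile normalization, 0.094 with equal totals and -0.11 to 0.052 without 1 library; SIL1 was -0.054 to 0.10 without 1 library. The cause was not tested.

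Same-numbered libraries deviated together only weakly (correlations 0.0224, 0.0566 and 0.00724), and 3 of 6 libraries correlated best with their own number, so the numbers are not taken as pairs. With the replicate number as a block, 2531 genes rose and 2715 fell over all genes tested, and 30 of the 42 rose. Depth and the way transcripts were summed to genes are unknown, so no limit for low genes such as DERL3 and SELENOK can be given.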
